A study of Mus musculus with 16 samples.

Results

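The unfolded protein response (UPR) and the folding machinery of the endoplasmic reticulum (ER) were followed through 34 genes in the terminal ileum of mice with and without the taste receptor gene Tas1r3. The genes were chosen by their known roles, with earlier results of these data known, and each was matched by its symbol to the transcripts of the deposited table. They are 34 of 23299 genes in the table, and all 34 were among the 19042 genes with enough signal to be tested. They were grouped by the arm of the response that is best known for controlling them: 11 genes in an XBP1 arm, 13 in an ATF6 arm, 7 in an ATF4 arm, and 3 folding genes put in no arm. Many of these genes answer to more than 1 factor, so the arms serve for counting only.

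Mice of the C57BL/6 strain, 5 to 6 weeks old when assigned, received a normal diet with plain water (ND) or a Western diet (WD) for 10 weeks. The WD was a 60% fat diet with 30% sucrose in the drink. Tas1r3-/- mice carry the Tas1r3tm1Csz allele in every cell of the body, backcrossed to C57BL/6 for at least 7 generations, and wild-type littermates (Tas1r3+/+) were the controls, so that neither genotype nor diet was limited to the ileum. The 4 groups are written WT-ND, KO-ND, WT-WD and KO-WD, and the labels give each 2 males (M1, M2) and 2 females (F1, F2). The values of both KO-ND females can be written as a weighted mean of the 2 KO-ND males. They were left out, so KO-ND is 2 males beside 2 males and 2 females in WT-ND. Diet in Tas1r3-/- and the interaction thus also set males alone against both sexes. Differences among the males alone are given beside results on ND, for the XBP1 and ATF6 arms in genotype on WD, and for the ATF6 arm in the interaction. The female columns of KO-WD are related to each other and were averaged into 1 library (F). This leaves 13 libraries of 16 labelled samples: 4, 2, 4 and 3.

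In the UPR, unfolded protein in the ER lumen activates 3 membrane sensors. IRE1 (Ern1, and in mucosal epithelium Ern2) splices the Xbp1 mRNA, ATF6 is cut in the Golgi to release a transcription factor, and PERK (Eif2ak3) phosphorylates eIF2, which lowers translation and favours that of Atf4. XBP1 and ATF6 raise chaperones, disulfide isomerases and the degradation machinery of the ER, and ATF4 raises genes of amino acid supply and stress. In the ileum, the cells with the heaviest secretory load are goblet cells, which release mucins, Paneth cells, which release defensins, and the plasma cells of the lamina propria, which release IgA. Fewer cells of such a type and less RNA per cell cannot be told apart in bulk tissue.

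The targeted gene followed the labels: Tas1r3 lay at 1.80 to 6.27 RPKM in the 8 Tas1r3+/+ libraries and at no more than 0.00452 in the 5 Tas1r3-/- libraries. The values imply 7005989 to 12384340 reads per library, and 1 read on 1 kb of transcript was worth 0.0692 to 0.139 RPKM. The tissue label was met by the ileal bile acid binding gene Fabp6 (mean of 2917 scaled RPKM) and the Paneth cell defensin Defa24 (16841). Pancreatic Ctrb1 reached 7.32 in WT-ND F1 and 2.75 in WT-WD F2 but not above 0.36 in any other library. Marker lists of 7 genes each differed in level between groups. The summed Paneth list was 10996 to 32909 scaled RPKM in WT-ND, 32448 to 61877 in KO-ND, 10957 to 23197 in WT-WD and 33041 to 48915 in KO-WD, and the enterocyte list was 7189 to 12002, 4059 to 6207, 5674 to 22181 and 1578 to 11912.

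The best known DNA element of these genes is the ER stress response element (ERSE), CCAAT and CCACG separated by 9 bases. It was searched on both strands of RefSeq promoters (GRCm38.p6, 250 bases before to 50 after the start), which were listed for 29 of the 34 genes. ERSE lay in 9 of the 29 promoters (31.0%) and in 39 of all 32851 promoters of that length (0.119%). The runs below are shown because ERSE was found in more of the members' promoters than any other element searched. The other 20 listed promoters, among them those of Dnajb9, Sdf2l1 and Sel1l, held none. Capitals mark the 2 parts of the element, and where the element lies on the opposite strand they read CGTGG and ATTGG. The position is that of the first base of the element relative to the start.

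Hspa5 ERSE at -65, same strand as the gene (chr2:34772015-34772053, plus strand): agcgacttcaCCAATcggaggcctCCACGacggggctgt
Calr ERSE at -162, opposite strand to the gene (chr8:84847065-84847103, minus strand): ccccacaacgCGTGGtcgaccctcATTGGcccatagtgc
Derl3 ERSE at -156, opposite strand to the gene (chr10:75893232-75893270, plus strand): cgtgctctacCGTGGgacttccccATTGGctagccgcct
Hsp90b1 ERSE at -212, same strand as the gene (chr10:86705628-86705666, minus strand): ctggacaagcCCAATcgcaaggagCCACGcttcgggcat
Hsp90b1 ERSE at -107, opposite strand to the gene (chr10:86705523-86705561, minus strand): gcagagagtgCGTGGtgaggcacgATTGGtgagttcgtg
Canx ERSE at -145, same strand as the gene (chr11:50325790-50325828, minus strand): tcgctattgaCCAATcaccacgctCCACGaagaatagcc
Pdia6 ERSE at -98, same strand as the gene (chr12:17266481-17266519, plus strand): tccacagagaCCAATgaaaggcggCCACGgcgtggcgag
Dnajc3 ERSE at -105, same strand as the gene (chr14:118937817-118937855, plus strand): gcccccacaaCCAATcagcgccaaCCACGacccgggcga
Creld2 ERSE at -126, opposite strand to the gene (chr15:88819510-88819548, plus strand): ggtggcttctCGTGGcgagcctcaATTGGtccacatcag
Syvn1 ERSE at -44, same strand as the gene (chr19:6046522-6046560, plus strand): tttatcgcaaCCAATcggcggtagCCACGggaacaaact

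Of the genes with an element, 6 are in the ATF6 arm, 2 in the XBP1 arm and 1, Canx, in no arm, and Hsp90b1 holds 2 elements. The shorter ERSE-II (ATTGG and CCACG separated by 1 base) lay in 2 of the 29 promoters, Herpud1 at -52 and Dnajb11 at 8, against 12 of all promoters (0.0365%). The ATF4 composite sequence, TGATG followed at once by CAA, lay in 2 of 29, Chac1 at -193 and Herpud1 at -112, both on the opposite strand, against 294 of all promoters (0.895%). The XBP1 core, TGACG followed at once by TGG, lay in 0 of 29 and in 222 of all promoters (0.676%). Herpud1 is shown because its window held both ERSE-II and the ATF4 sequence, and Chac1 because it is a well known ATF4 target.

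Herpud1 ERSE-II at -52, same strand as the gene (chr8:94386367-94386397, plus strand): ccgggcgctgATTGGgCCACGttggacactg
Chac1 ATF4 composite at -193, opposite strand to the gene (chr2:119351039-119351066, plus strand): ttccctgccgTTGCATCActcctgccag
Herpud1 ATF4 composite at -112, opposite strand to the gene (chr8:94386307-94386334, plus strand): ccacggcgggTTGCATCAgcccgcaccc

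**Figure D1:**
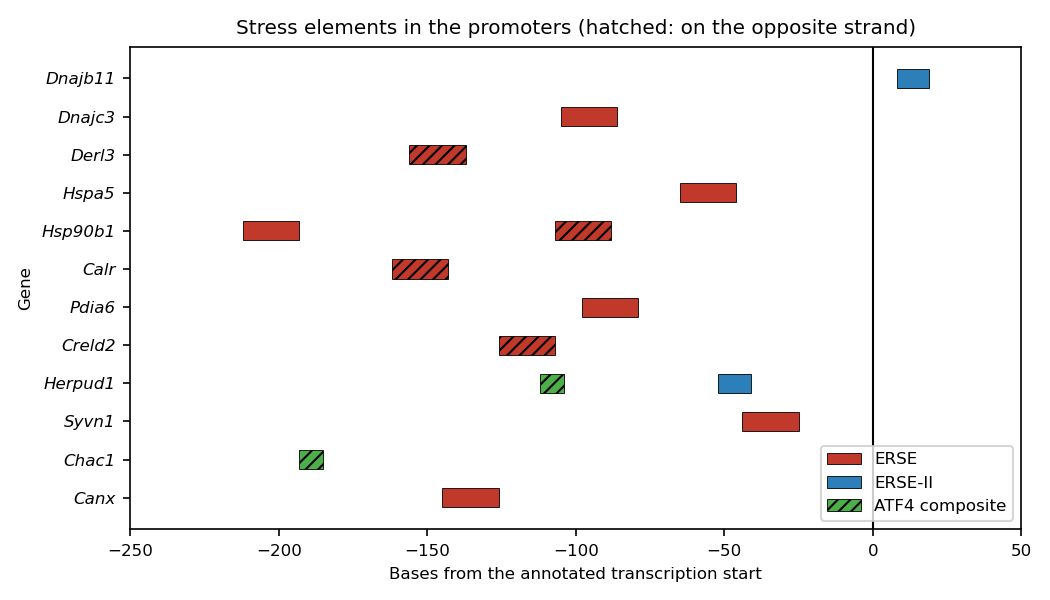
Positions of the matched elements in the promoters of the members, in bases from the transcription start (x axis, 250 before to 50 after), 1 line per gene. The 9 promoters with ERSE carry it between -212 and -44, and Herpud1 carries ERSE-II at -52 and the ATF4 sequence at -112.

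The 34 genes spanned a wide range of levels, given here as gene RPKM scaled between libraries and averaged over 13 libraries. The most abundant were the lectin chaperone Calr (322), the disulfide isomerase P4hb (306), the lumenal HSP70 Hspa5, also known as BiP (195), and the lumenal HSP90 Hsp90b1 (154). Calr was above 98.6% of the tested genes. The transcription factors Atf4 (119) and Xbp1 (114) were also high. The sensors were far lower, with Eif2ak3 at 10.3, Atf6 at 8.30, Ern2 at 7.47 and Ern1 at 5.87. The pseudokinase Trib3 (3.15) and the glutathione-degrading enzyme Chac1 (1.03) were lowest, and in 1 library Chac1 rested on only 4 implied reads and Trib3 on 18. Apart from these and Derl3 (33), every member had at least 114 implied reads in every library.

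Derl3 and the 2 lowest genes of the ATF4 arm varied most between libraries. The ratio of the highest to the lowest library was 8.61 for Derl3, 7.84 for Chac1, 7.68 for Trib3 and 4.27 for Dnajb9, against 1.61 for Sel1l and 1.63 for Atf6. The standard deviation within groups on the log2 scale had a median of 0.346 over the members and 0.402 over all tested genes, with the largest at Trib3 (0.767), Derl3 (0.654) and Chac1 (0.542). The WT-WD F1 library held the lowest value of 19 of the 34 members, and KO-WD M2 the highest of 8. The mean log2 level of the 34 genes was 4.59 in WT-WD F1 and 4.75 to 5.16 in the other 12 libraries. The same WT-WD F1 library had the lowest goblet list of its group (4876, up to 16174 in WT-WD F2) and the highest smooth muscle list (4200, down to 1062 in WT-WD F2), in summed scaled RPKM. The part of cell makeup in the members' values was not tested.

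**Figure D2:**
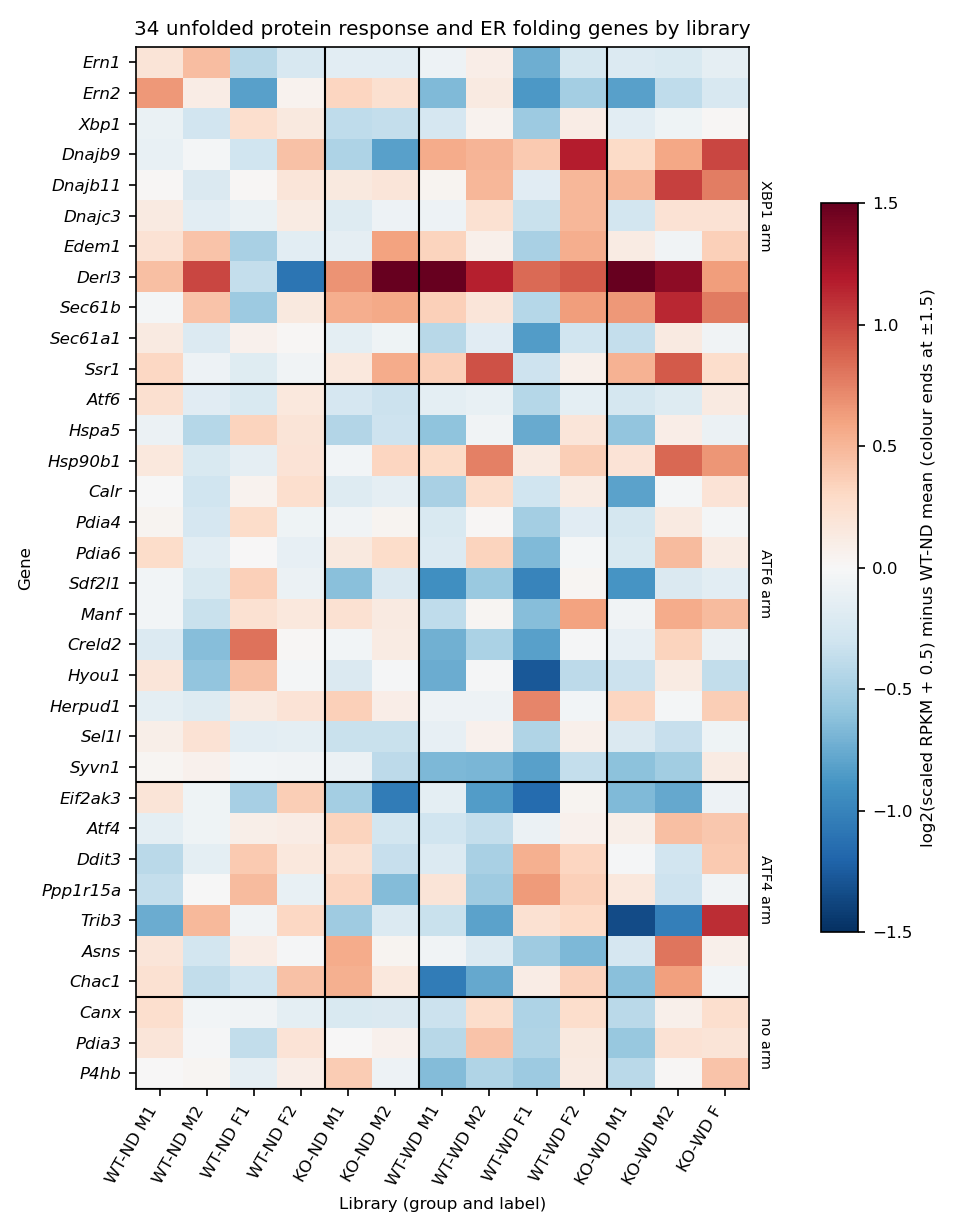
Scaled log2 RPKM of each member (1 line per gene, by arm) in each of the 13 libraries (columns, by group), as the difference from the gene's mean in the 4 WT-ND libraries (red above, blue below). The WT-WD F1 column is low for most members and the Dnajb9 line is lowest in both KO-ND libraries.

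No member was called in any comparison, a call being an adjusted p below 0.01 in limma together with a change of 2-fold or more. For WD against ND in Tas1r3+/+, 0 of 34 members were called against 0.00525% of all genes. At an unadjusted p under 0.05, 2 members were higher (6.90% of all genes were) and 4 were lower (8.64%). The median log2 difference of the members was −0.14 beside 0.02 over all genes. On WD 11 members were higher and 23 lower, and of all 19042 genes 9865 and 9177. By arm the median was 0.12 in the XBP1 arm (7 of 11 higher), −0.21 in the ATF6 arm (2 of 13 higher), −0.17 in the ATF4 arm (2 of 7 higher) and −0.07 in the 3 remaining genes (0 of 3 higher). The goblet cell marker list had a median of −0.63 in the same comparison, with 5 of its 7 genes lower, and its part in the members' values was not tested.

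For WD against ND in Tas1r3-/-, 0 members were called (0.0% of all genes), 2 were higher at an unadjusted p under 0.05 (2.75% of all genes) and 0 were lower (2.75%). The median of the members was 0.05 beside 0.00 over all genes. Of the members 19 were higher and 15 lower, and of all 19042 genes 9604 and 9438. By arm the member median was 0.19 (XBP1, 8 of 11 higher), −0.00 (ATF6, 6 of 13), 0.09 (ATF4, 4 of 7) and −0.09 (1 of 3).

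For Tas1r3-/- against Tas1r3+/+ on ND, 0 members were called (0.0% of all genes), 1 was higher at an unadjusted p under 0.05 (2.11% of all genes) and 1 was lower (2.62%). Here the member median was −0.03 beside 0.01 over all genes. Of the members 16 were higher and 18 lower, and of all 19042 genes 9766 and 9276. Among males alone the member median was 0.00. Eif2ak3 (−0.84), Dnajb9 (−0.56) and Sel1l (−0.48) were lower there at an unadjusted p under 0.05, with limma adjusted p of 0.530 to 0.540. The share of all genes at that p was not worked out for the males. On WD, 0 members were called (0.0105% of all genes), 4 were higher in Tas1r3-/- at an unadjusted p under 0.05 (1.64% of all genes) and 0 were lower (1.01%). The member median on WD was 0.11 beside −0.01 over all genes. In Tas1r3-/-, 26 of 34 members were higher, and of all 19042 genes 9086 were. Among these members were 11 of 13 in the ATF6 arm (median 0.19) and 8 of 11 in the XBP1 arm (0.05). Among males alone Ern1 (−0.23), Ern2 (−0.34), Xbp1 (−0.01), Dnajb9 (−0.10), Dnajc3 (−0.10) and Edem1 (−0.16) of the XBP1 arm were lower. So were Atf6 (−0.10), Calr (−0.30) and Sel1l (−0.25) of the ATF6 arm, and the other genes of both arms were higher. Without KO-WD M1 the member median was 0.28, the highest on leaving out any library, and the lowest was 0.05. The Paneth list was higher for 7 of 7 genes in Tas1r3-/- on both diets (medians of 1.21 on ND and 1.38 on WD). The smooth muscle list was also higher for 7 of 7 genes on both diets (0.62 and 0.32), and the enterocyte list was lower for 7 of 7 (−1.06 and −0.68). The macrophage list was higher for 7 of 7 genes on ND (0.36) and lower for 7 of 7 on WD (−0.32), and the T cell list was lower for 7 of 7 on WD (−0.34). The part of these lists in the members' values was not tested.

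In the genotype by diet interaction, 0 members were called (0.0% of all genes) and none reached an unadjusted p under 0.05 (1.43% of all genes did, in either direction). The difference of the diet effects, Tas1r3-/- minus Tas1r3+/+, had a median of 0.22 over the members beside −0.00 over all genes. It was positive for 26 of 34 members and for 9431 of all 19042 genes. In the ATF6 arm it was positive for 12 of the 13 genes (median 0.24). Among males alone it was negative for Hsp90b1 (−0.16), Calr (−0.29), Pdia4 (−0.07), Pdia6 (−0.10) and Herpud1 (−0.17) of that arm. It was positive there for the other genes of the arm. These comparisons share groups: both diet comparisons and both genotype comparisons use the same 13 libraries, so their values are set side by side and not as independent results. The half-width of the 95% interval of a member's log2 difference had a median of 0.53 for diet in Tas1r3+/+, 0.68 for diet in Tas1r3-/-, 0.65 for genotype on ND, 0.57 for genotype on WD and 0.86 for the interaction. Over the members it ran from 0.35 to 1.04 for diet in Tas1r3+/+ and from 0.57 to 1.71 for the interaction. The smallest p of a two-sided exact permutation test of 1 gene was 0.0286 for diet in Tas1r3+/+ and for genotype on WD, 0.1 for diet in Tas1r3-/- and 0.0667 for genotype on ND.

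**Figure D3:**
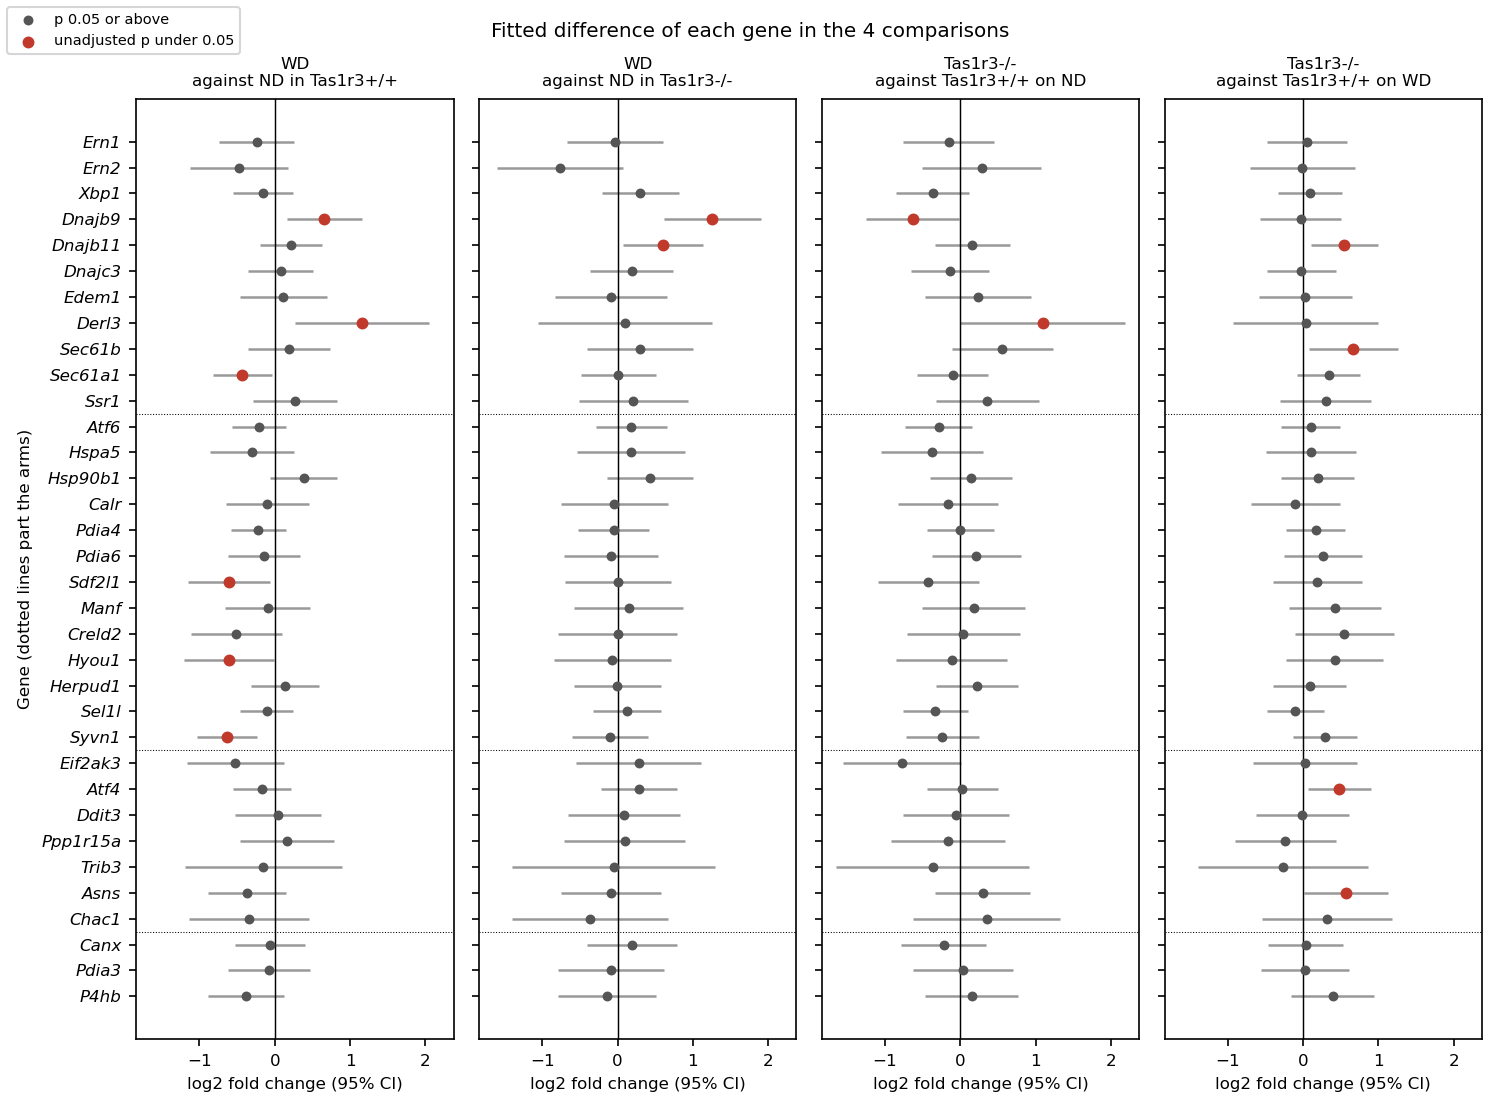
Log2 difference of each member in the 4 comparisons between groups, with points for the fitted difference and bars for its 95% interval, ordered by arm. Dnajb9 lies farthest above 0 on WD in Tas1r3-/- (1.26), and most intervals cross 0.

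Among the sensors, none of the 4 genes had an unadjusted p under 0.05 in any comparison of all 13 libraries. Eif2ak3, the kinase PERK, measured 14.9, 12.4, 9.06 and 16.9 in WT-ND, 8.96 and 6.04 in KO-ND, 11.7, 7.07, 5.56 and 13.4 in WT-WD, and 8.06, 7.42 and 12.3 in KO-WD scaled RPKM, in the order M1, M2, F1, F2 within each group (M1, M2 in KO-ND and M1, M2, F in KO-WD), the order kept below. Its log2 difference in KO-ND against WT-ND was −0.78 ± 0.36 (SE, limma adjusted p = 0.895, exact permutation p = 0.133), and the lowest WT-ND value (9.06) lay just above the highest KO-ND value (8.96). With protein-coding transcripts alone it was −0.24 (limma adjusted p = 0.935). The coding level averaged 7.65 in WT-ND and 6.28 in KO-ND, and that of the other transcripts 5.68 and 1.22. Ern2, the IRE1 of goblet and other mucosal cells, measured 13.2, 8.95, 4.47 and 8.58 in WT-ND, 10.5 and 9.83 in KO-ND, 5.03, 9.08, 4.33 and 5.64 in WT-WD, and 4.46, 6.19 and 6.90 in KO-WD. Both KO-ND libraries exceeded all 3 KO-WD libraries for Ern2, with a log2 difference of −0.77 ± 0.39 (SE, limma adjusted p = 0.907, exact permutation p = 0.1). Over the 5 comparisons, the log2 differences were −0.24 to 0.21 for Ern1 and −0.29 to 0.39 for Atf6.

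Xbp1, the transcription factor of the IRE1 arm, measured 114, 101, 146 and 136 in WT-ND, 94.1 and 95.9 in KO-ND, 103, 128, 84.0 and 133 in WT-WD, and 110.3, 118 and 124 in KO-WD scaled RPKM. Its KO-ND libraries lay below all 3 KO-WD libraries and below all other libraries except WT-WD F1, and the log2 difference in KO-ND against WT-ND was −0.37 ± 0.23 (SE, limma adjusted p = 0.895, exact permutation p = 0.133) and −0.17 among males alone. These are total levels: no Xbp1 transcript of the annotation lacks the short intron that IRE1 removes, so spliced Xbp1 could not be separated. Atf4, the transcription factor of the PERK arm, measured 104, 110.0, 122 and 124 in WT-ND, 144 and 94.95 in KO-ND, 93.4, 89.6, 108 and 120.1 in WT-WD, and 122, 157 and 152 in KO-WD. All 3 KO-WD libraries lay above all 4 WT-WD libraries, with a log2 difference of 0.48 ± 0.19 (SE, limma adjusted p = 1.00, exact permutation p = 0.0571). It was no longer at an unadjusted p under 0.05 in 4 of the 7 fits without 1 library (WT-WD M1, WT-WD M2, KO-WD M2 or KO-WD F), with values of 0.41 to 0.59 over the 7. Since PERK acts on the translation of Atf4, its mRNA level is not a measure of PERK activity.

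Dnajb9, also known as ERdj4, a co-chaperone of BiP and a well known XBP1 target, had the largest diet difference of the members in Tas1r3-/-. It measured 8.11, 8.57, 7.06 and 12.1 in WT-ND, 6.26 and 4.80 in KO-ND, 13.2, 12.7, 11.7 and 20.5 in WT-WD, and 10.9, 13.4 and 18.1 in KO-WD scaled RPKM. The WT-WD libraries lay above the WT-ND libraries apart from WT-ND F2 (12.1), which exceeded WT-WD F1 (11.7), and all 3 KO-WD libraries lay above both KO-ND libraries. The group means were 8.96 ± 2.18 (SD, n = 4) in WT-ND, 5.53 ± 1.03 (SD, n = 2) in KO-ND, 14.5 ± 4.01 (SD, n = 4) in WT-WD and 14.1 ± 3.69 (SD, n = 3) in KO-WD. The log2 difference for WD against ND was 0.66 ± 0.23 (SE, limma adjusted p = 0.211, exact permutation p = 0.0571) in Tas1r3+/+ and 1.26 ± 0.30 (SE, limma adjusted p = 0.688, exact permutation p = 0.1) in Tas1r3-/-. On ND it was −0.63 ± 0.28 (SE, limma adjusted p = 0.895, exact permutation p = 0.0667) between genotypes, and on WD it was −0.03 ± 0.25 (SE), and the interaction was 0.60 ± 0.38 (SE, limma adjusted p = 1.00). The difference on ND was no longer at an unadjusted p under 0.05 in 5 of the 6 fits without 1 library, with values of −0.81 to −0.46, and it kept that p only without WT-ND F1. The exons of Dnajb9 overlap the microRNA gene Mir5627 on the opposite strand.

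Other co-chaperones of BiP had smaller differences. Dnajb11, or ERdj3, measured 23.9, 20.3, 24.0 and 26.9 in WT-ND, 26.2 and 26.9 in KO-ND, 24.4, 33.5, 20.9 and 33.7 in WT-WD, and 33.7, 48.7 and 40.6 in KO-WD. Its KO-WD libraries lay above both KO-ND libraries, with a log2 difference of 0.60 ± 0.24 (SE, limma adjusted p = 0.888, exact permutation p = 0.2). Against WT-WD the log2 difference was 0.55 ± 0.20 (SE, limma adjusted p = 1.00, exact permutation p = 0.143), and KO-WD M1 (33.66) lay just below WT-WD F2 (33.72). Without KO-WD M2 (48.7) these differences were 0.47 and 0.42, no longer at an unadjusted p under 0.05. The first also lost that p without KO-ND M1 or KO-ND M2 (0.58 and 0.62), and the second without WT-WD F1 (0.42). Dnajc3, which restrains PERK, lay between 13.7 and 25.0 and differed by −0.14 to 0.19 on the log2 scale between groups.

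The plot of these genes by library shows the pattern of Dnajb9 beside those of Syvn1, Dnajb11, Sec61b, Atf4 and Herpud1.

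**Figure D4:**
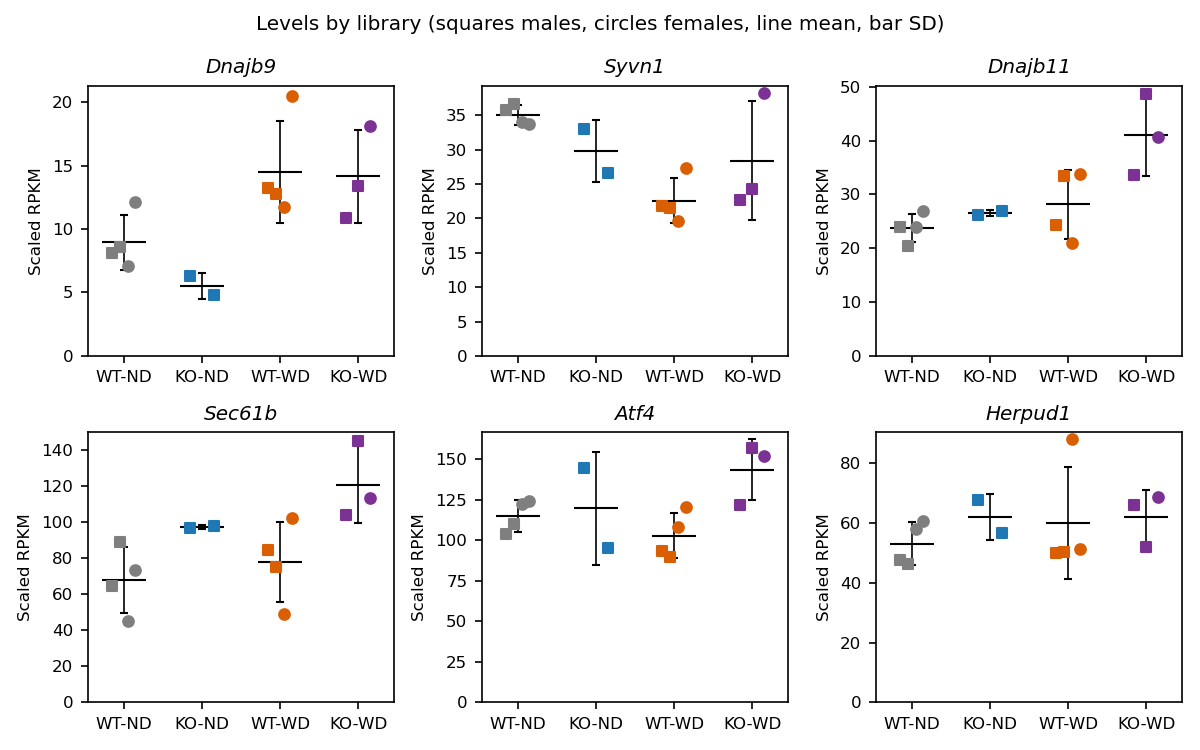
Scaled RPKM (y axis, from 0) of 6 members in each library (points) with the group mean and SD (bars), by group on the x axis. Dnajb9 is lowest in KO-ND and similar in both WD groups, Syvn1 is higher in all 4 WT-ND than in all 4 WT-WD libraries, and the highest Herpud1 value is that of WT-WD F1.

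Among the lumenal chaperones of the ATF6 arm, Hspa5 measured 205, 161, 274 and 248 in WT-ND, 160.4 and 175 in KO-ND, 143, 210.4, 129 and 247 in WT-WD, and 144, 232 and 205 in KO-WD scaled RPKM. The ranges overlapped in every comparison, and the log2 difference for diet in Tas1r3+/+ was −0.30 ± 0.26 (SE, limma adjusted p = 0.589, exact permutation p = 0.286). Hsp90b1, the lumenal HSP90, had a log2 difference for WD against ND of 0.39 ± 0.21 (SE, limma adjusted p = 0.383, exact permutation p = 0.0857) in Tas1r3+/+ and 0.43 ± 0.26 (SE) in Tas1r3-/-, and its exons overlap other genes on both strands. Hyou1, the large HSP70-related nucleotide exchange factor of BiP, measured 38.9, 22.6, 46.8 and 33.8 in WT-ND, 29.6 and 33.9 in KO-ND, 20.4, 33.9, 13.9 and 25.98 in WT-WD, and 27.4, 37.6 and 26.4 in KO-WD. The log2 difference of Hyou1 for diet in Tas1r3+/+ was −0.61 ± 0.28 (SE, limma adjusted p = 0.318, exact permutation p = 0.171), with 2 of the 4 WT-WD libraries within the WT-ND range. It was no longer at an unadjusted p under 0.05 in 5 of the 8 fits without 1 library (WT-ND M1, F1 or F2, WT-WD M1 or F1), with values of −0.80 to −0.38 over the 8, nor among males alone (−0.17), and over all alternatives it lost that p in 12 of 23. Calr, in contrast, differed by no more than 0.16 in size on the log2 scale in any comparison, and its partner Canx by no more than 0.26. With protein-coding transcripts alone Canx differed by 0.37 for diet in Tas1r3+/+ (limma adjusted p = 0.436). For diet in Tas1r3-/- it differed by 0.48 with these (limma adjusted p = 0.990), and Calr by up to 0.20 in any comparison.

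Sdf2l1, a lumenal partner of ERdj3, measured 25.5, 22.4, 33.8 and 24.8 in WT-ND, 16.9 and 22.5 in KO-ND, 13.6, 17.7, 13.04 and 27.0 in WT-WD, and 13.99, 22.6 and 23.6 in KO-WD. The log2 difference of Sdf2l1 for diet in Tas1r3+/+ was −0.61 ± 0.25 (SE, limma adjusted p = 0.275, exact permutation p = 0.114). Of the 4 WT-WD libraries, 3 lay below every WT-ND library, whereas F2 lay within the WT-ND range. The difference was no longer at an unadjusted p under 0.05 in 4 of the 8 fits without 1 library (WT-ND M1 or F1, WT-WD M1 or F1), with values of −0.82 to −0.48 over the 8. Creld2 and Manf, secreted ER stress proteins, differed by −0.51 ± 0.28 (SE) and −0.10 ± 0.26 (SE) in the same comparison and by 0.55 ± 0.30 (SE) and 0.42 ± 0.28 (SE) in Tas1r3-/- against Tas1r3+/+ on WD. Neither had an unadjusted p under 0.05 in the fit of all 13 libraries. Among males alone the difference of Creld2 between genotypes on WD was 0.71 (limma adjusted p = 0.642), at an unadjusted p under 0.05.

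The disulfide isomerases showed no difference at an unadjusted p under 0.05 in the fit of all 13 libraries. P4hb differed by −0.38 ± 0.23 (SE) on WD in Tas1r3+/+ and by 0.39 ± 0.25 (SE) in Tas1r3-/- against Tas1r3+/+ on WD, the widest of the group. With protein-coding transcripts alone the latter was 0.00 (limma adjusted p = 1.00) and the former −0.50 (limma adjusted p = 0.466). Pdia3, Pdia4 and Pdia6 stayed between −0.22 and 0.26 on the log2 scale in all 5 comparisons. Among males alone P4hb differed by −0.57 for diet in Tas1r3+/+ (limma adjusted p = 0.278), at an unadjusted p under 0.05.

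The translocon genes, which form the channel by which new proteins enter the ER, are represented by 3 members. Sec61b, the beta subunit, measured 64.5, 88.8, 44.9 and 73.2 in WT-ND, 96.3 and 97.9 in KO-ND, 84.3, 74.7, 49.0 and 102 in WT-WD, and 104, 144 and 113 in KO-WD scaled RPKM. All 3 KO-WD libraries (104 to 144) lay above all 4 WT-WD libraries (49.0 to 102), with a log2 difference of 0.67 ± 0.27 (SE, limma adjusted p = 1.00, exact permutation p = 0.0571). Both KO-ND libraries of Sec61b (96.3 and 97.9) also lay above all 4 WT-ND libraries, with a log2 difference of 0.56 ± 0.31 (SE, limma adjusted p = 0.895, exact permutation p = 0.2) and of 0.36 among males alone. The difference on WD was 0.46 without WT-WD F1 and 0.53 without KO-WD M2, in both cases no longer at an unadjusted p under 0.05. Sec61a1, the pore subunit, measured 99.7, 78.5, 94.99 and 91.9 in WT-ND, 82.3 and 87.3 in KO-ND, 68.2, 80.5, 50.7 and 74.1 in WT-WD, and 71.1, 99.9 and 87.6 in KO-WD. Its log2 difference for diet in Tas1r3+/+ was −0.43 ± 0.18 (SE, limma adjusted p = 0.277, exact permutation p = 0.0571), with WT-WD M2 (80.5) above WT-ND M2 (78.5), and it was no longer at an unadjusted p under 0.05 in 5 of the 8 fits without 1 library (WT-ND M1, F1 or F2, WT-WD M1 or F1), with values of −0.51 to −0.29 over the 8. Ssr1, of the translocon-associated protein complex, had a log2 difference of 0.27 ± 0.26 (SE) in that comparison.

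In ER-associated degradation, Syvn1, the ubiquitin ligase HRD1, was the member with the smallest p of the diet comparison in Tas1r3+/+. It measured 35.8, 36.7, 34.1 and 33.7 in WT-ND, 33.0 and 26.6 in KO-ND, 21.9, 21.5, 19.7 and 27.3 in WT-WD, and 22.6, 24.3 and 38.3 in KO-WD scaled RPKM. All 4 WT-WD libraries (19.7 to 27.3) lay below all 4 WT-ND libraries (33.7 to 36.7), with means of 22.6 ± 3.30 (SD, n = 4) and 35.1 ± 1.43 (SD, n = 4). The log2 difference was −0.63 ± 0.18 (SE, limma adjusted p = 0.148, exact permutation p = 0.0286), and this exact p is the smallest that 4 against 4 libraries allow. In Tas1r3-/- the diet difference was −0.10 ± 0.24 (SE), with KO-WD F (38.3) above both KO-ND libraries, and the interaction was 0.53 ± 0.30 (SE, limma adjusted p = 1.00). On unscaled RPKM, Syvn1 was called (log2 difference of −1.09, limma adjusted p = 0.00464), 1 of 539 genes in all, and the median of all genes was there −0.38. The exons of Syvn1 overlap those of Mrpl49 on the opposite strand, and how the counting used the strand is not given in the sources used here. Its promoter holds the ERSE nearest to the start in the list above.

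Sel1l, Edem1 and Herpud1, also of the degradation machinery, had no difference at an unadjusted p under 0.05 in the fit of all 13 libraries. Sel1l, the partner of Syvn1, lay between 14.2 and 22.8 and differed by −0.33 to 0.23 on the log2 scale. Edem1, a lectin that hands misfolded glycoproteins to degradation, differed by −0.20 to 0.23. Herpud1 measured 47.6, 46.1, 58.0 and 60.7 in WT-ND, 67.5 and 56.5 in KO-ND, 50.1, 50.1, 87.9 and 51.3 in WT-WD, and 66.0, 51.8 and 68.5 in KO-WD, with the highest value in WT-WD F1, the library in which 19 members were at their lowest. Its log2 differences were −0.14 to 0.23.

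Derl3, a derlin of the degradation channel that is induced by XBP1, measured 6.10, 9.15, 3.25 and 1.76 in WT-ND, 7.18 and 13.2 in KO-ND, 15.2, 10.3, 8.19 and 8.63 in WT-WD, and 14.2, 11.7 and 6.93 in KO-WD scaled RPKM. The 4 WT-WD libraries lay above WT-ND M1, F1 and F2, and 2 of them above WT-ND M2 (9.15). The log2 difference for diet in Tas1r3+/+ was 1.16 ± 0.41 (SE, limma adjusted p = 0.216, exact permutation p = 0.0857), and between genotypes on ND it was 1.09 ± 0.50 (SE, limma adjusted p = 0.895, exact permutation p = 0.2), with WT-ND M2 between the KO-ND libraries. Among males alone the difference on ND was 0.36 (limma adjusted p = 0.722), and with protein-coding transcripts alone it was 0.38 (limma adjusted p = 0.935). Over all alternatives it lost its unadjusted p under 0.05 in 13 of 21. The diet difference was 0.80 without WT-ND F2 and 0.71 among males alone, no longer at that p. The lowest value, 1.76 in WT-ND F2, came from the library with the lowest summed plasma cell list (4083 scaled RPKM). That list of 7 genes ranged up to 10942 in WT-ND and was 14634 to 18219 in KO-ND, 8140 to 18404 in WT-WD and 5067 to 24695 in KO-WD, with 6 of 7 genes higher on WD in Tas1r3+/+ and none at 0. Its part in the Derl3 values was not tested.

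As the quantification divided the reads, the diet difference of Derl3 lay in 1 noncoding transcript. Gene values are sums of transcript RPKM, so the division of reads among transcripts also enters the gene level. Its part in the diet difference was not tested. Transcripts not annotated as protein coding held 68.4% of the Derl3 level, and with protein-coding transcripts alone, a choice made after seeing the data, the log2 difference for diet in Tas1r3+/+ was −0.16 (limma adjusted p = 0.861). The coding level averaged 2.68 in WT-ND, 3.41 in KO-ND, 2.38 in WT-WD and 3.18 in KO-WD, and the level of the other transcripts averaged 2.38, 6.80, 8.2004 and 7.78. Of 105 transcripts of the members tested in a fit of 43552 transcripts, 1 was called for diet in Tas1r3+/+ (0.0804% of all transcripts were), namely Derl3-203. No member transcript was called for diet in Tas1r3-/- (0.00918%), for genotype on ND (0.0%) or on WD (0.0023%), or in the interaction (0.0%).

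Derl3-203 is a processed transcript of 815 bases at Derl3 (chromosome 10, 75893413 to 75895941, plus strand, GRCm38). Its exons lie within exons 1, 2, 6 and 7 of the 7 exons of the coding Derl3-201 and it lacks exons 3 to 5, and the junction of exon 2 to exon 6 was found in 0 of the 7 other annotated Derl3 transcripts, 2 of them coding. The junction is shown because it separates this transcript from the others annotated, with the last 15 bases of exon 2 in lower case and the first 15 of exon 6 in capitals (chromosome 10, 75893670 to 75893684 and 75895039 to 75895053, GENCODE M21).

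Derl3-203 junction of exon 2 to exon 6: ttccggaagttccagGGATCCTTGTGGGCC

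The scaled RPKM of Derl3-203 was 0.119, 0.101, 0.00103 and 0.00168 in WT-ND, 2.79 and 5.99 in KO-ND, 9.94, 3.53, 5.27 and 5.30 in WT-WD, and 6.24, 6.92 and 4.12 in KO-WD. All 9 libraries of the other groups thus lay far above the 4 WT-ND libraries. In implied reads the WT-ND libraries held 1.03, 0.68, 0.01 and 0.02, whereas the other 9 held 26.4 to 86.3. Summed and rounded, 2 implied reads in WT-ND stood against 206 in WT-WD, a depth-adjusted ratio of 113. The 95% counting interval of 30.8 to 938 treats these estimates as counted reads. It covers neither the error of dividing reads among transcripts nor the spread between mice. The fitted log2 difference for diet in Tas1r3+/+ was 3.47 ± 0.33 (SE, limma adjusted p = 0.00086). It depends on the pseudocount and was 5.29 with 0.1 and 2.66 with 1 in place of 0.5, and among males alone it was 3.41 (limma adjusted p = 0.118). The log2 difference was 3.06 between genotypes on ND (limma adjusted p = 0.0852), 0.41 for diet in Tas1r3-/- (adjusted p = 0.942) and 0.00 between genotypes on WD (adjusted p = 1.00). The interaction was −3.06 (limma adjusted p = 0.531), so that the diet differences of the genotypes were not shown to differ. Reads of the shared exons were divided among transcripts by estimation, and no junction reads were available here, so these values are estimates of the quantification.

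**Figure D5:**
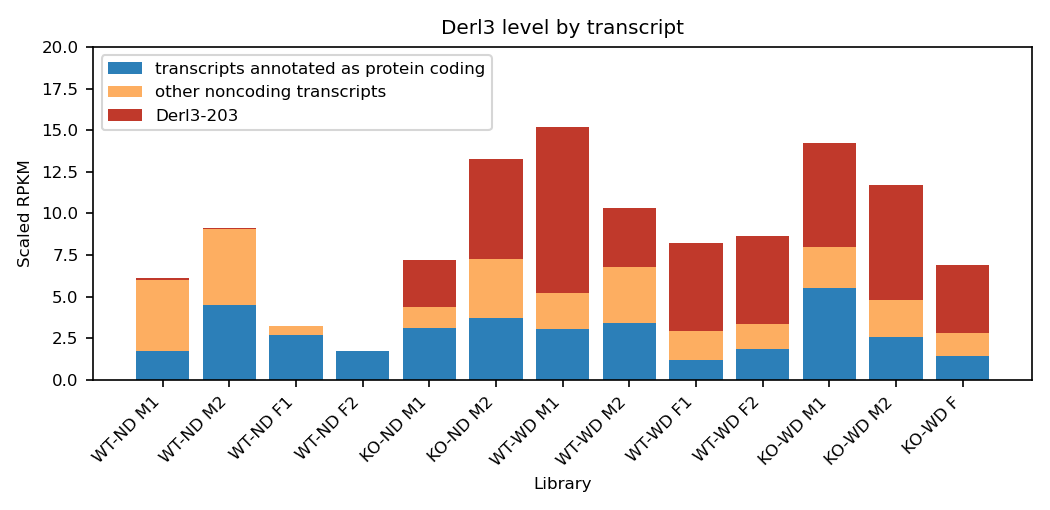
Scaled RPKM (y axis) of Derl3 in each of the 13 libraries (x axis, by group), as stacked bars of the coding transcripts (blue), Derl3-203 (red) and the other noncoding transcripts (orange). Derl3-203 is close to 0 in the 4 WT-ND libraries and between 2.79 and 9.94 in the other 9.

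In the ATF4 arm, Asns, the asparagine synthetase, measured 19.2, 13.9, 18.3 and 16.7 in WT-ND, 25.0 and 17.5 in KO-ND, 16.3, 14.6, 11.58 and 10.4 in WT-WD, and 14.1, 29.9 and 17.8 in KO-WD scaled RPKM. The log2 difference for genotype on WD was 0.57 ± 0.26 (SE, limma adjusted p = 1.00, exact permutation p = 0.143), with KO-WD M1 (14.1) inside the WT-WD range, and it was no longer at an unadjusted p under 0.05 in 4 of the 7 fits without 1 library (WT-WD F1, WT-WD F2, KO-WD M2 or KO-WD F), down to 0.28 without KO-WD M2 (29.9). Ddit3, or CHOP, the stress-induced transcription factor tied to cell death, lay between 12.1 and 24.9 and differed by −0.06 to 0.09 on the log2 scale in the 5 comparisons, with overlapping groups throughout. Ppp1r15a, which returns eIF2 to its unphosphorylated state, differed by −0.24 to 0.17. Trib3, a CHOP target, ranged from 0.991 to 7.61 within KO-WD alone, and Chac1 from 0.229 to 1.41 within WT-WD, and with Derl3 these genes had the widest intervals of the members. Ddit3, Ppp1r15a, Eif2ak3, Manf, Pdia3, Pdia4, Pdia6 and Sec61a1 also share exon sequence with another gene.

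Genes with and without an ERSE are set side by side as a description. For diet in Tas1r3+/+, the 9 genes with an ERSE had a median log2 difference of −0.10 and the 20 other genes with a listed promoter −0.13. The medians were 0.10 and 0.05 for diet in Tas1r3-/-, −0.14 and 0.01 for genotype on ND, and 0.11 and 0.09 for genotype on WD.

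A further 101 tested genes of the same pathways, in 6 lists, were tested beside the members, and 0 of them were called in any comparison. At an unadjusted p under 0.05, limma gave 7 higher and 8 lower for diet in Tas1r3+/+, 2 and 2 for diet in Tas1r3-/-, 4 and 4 for genotype on ND, 1 and 0 for genotype on WD, and 0 and 1 in the interaction. Over all genes the shares at that p were 6.90% higher and 8.64% lower for diet in Tas1r3+/+, and 2.75% and 2.75% for diet in Tas1r3-/-. They were 2.11% and 2.62% for genotype on ND, 1.64% and 1.01% for genotype on WD, and 0.719% and 0.709% in the interaction. For diet in Tas1r3+/+, Mogs, the glucosidase that starts the trimming of N-glycans, had a log2 difference of −0.77 ± 0.18 (SE, adjusted p = 0.10), Atf6b, a relative of Atf6, −0.60 ± 0.14 (SE, adjusted p = 0.10), and Selenok, a selenoprotein of ER-associated degradation, 0.64 ± 0.17 (SE, adjusted p = 0.126). Eif2s1, of the same list as Atf6b, was higher, at 0.71 ± 0.22 (SE, adjusted p = 0.176). In the translocon list Spcs1 was at 0.64 ± 0.23 (SE) and Dad1 at −0.50 ± 0.17 (SE). Mogs and Selenok had values of −0.59 ± 0.23 (SE) and 0.65 ± 0.22 (SE) for diet in Tas1r3-/-. For genotype on ND, 2 genes of the ATF4 target list were higher and 2 lower at an unadjusted p under 0.05. The list ran from −1.63 to 1.00 there. Its higher genes were Nupr1, at 1.00 ± 0.40 (SE), and Mthfd2, a mitochondrial folate enzyme, at 0.75 ± 0.32 (SE) and at 0.66 ± 0.28 (SE) on WD. Of the other lists, Prdx4 (0.56), Sec62 (0.48), Eif2ak1 (−0.57) and Creb3l3 (−2.35) were at that p on ND. Prdx4 was also the 1 gene at that p in the interaction (−0.62). The 18 genes of the translocon, signal peptidase and oligosaccharyl transferase list were all higher in Tas1r3-/- on WD, by 0.03 to 0.44 on the log2 scale with a median of 0.25, with 0 of the 18 at an unadjusted p under 0.05. Of all 19042 genes, 9086 were higher there. In the other lists 7 of 12 (oxidative folding), 10 of 20 (ER-associated degradation), 10 of 12 (ER to Golgi transport), 12 of 21 (ATF4 targets) and 8 of 18 (stress kinases and other sensors) were higher. On ND, 15 of the 18 genes of the translocon list were also higher in Tas1r3-/- (median 0.16).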

How the data were processed

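RNA from the terminal ileum of single mice was sequenced by the authors, who mapped the reads to GRCm38 (mm10) with STAR in Partek Flow and quantified Ensembl transcripts. The deposited values are RPKM per transcript: the authors scaled the reads of each transcript to its length and to the depth of the library. Which library total they used was not identified, and the scaling below removes it from the comparisons. DESeq2, named by the authors, needs counts and was not used here. How the quantification used the strand is not given in the sources used here. The table and the values per sample differed by at most 4.99e-08, and 0 value columns matched no sample.

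Transcripts were summed by gene (59258 transcripts, 23299 genes), and 98.2% of them matched GENCODE M21, which gave lengths, types and coordinates. Reads were implied from the smallest step of the values of single-transcript genes. A gene was tested where 2 or more of the 13 libraries reached an RPKM of 1. Scale factors between libraries (0.693 to 1.41) came from log ratios trimmed by 30% and levels trimmed by 5% at each end, and log2(scaled RPKM + 0.5) was fitted with limma 3.58.1 in R 4.3.3, using 1 model for the 4 groups and a trend of the variance with the mean. Log2 differences are on this scale, which understates those of low genes. Calls needed a Benjamini-Hochberg adjusted p under 0.01 over all 19042 genes and a fold change of at least 2. Exact permutation tests were two-sided, on scaled log2 values of 1 gene. Transcripts were fitted in the same way (43552 tested), a step chosen after seeing the data. Tables came from scripts in pandas 2.3.3, scipy 1.17.1 and numpy 2.4.6 under Python 3.11.15, and the procedure was tested on simulated data.

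The members, arms, pathway lists and marker lists were chosen with earlier results of these data known. Named in the text are all 34 members, up to 2 genes per pathway list and comparison with the smallest unadjusted p under 0.05 (a selection of these is given), and markers that a sentence needs. The labels name each sample as a mouse, and p-values measure the spread between these samples. Alternatives were other scalings, pseudocounts and filters, sex as a covariate, the replicate number as a block, fits of 2 groups or of males, all labelled columns, and each library left out in turn. The labels number the replicates without stating a pairing. Same-numbered libraries of different groups correlated at −0.20 to 0.57 (16 pairs) and others at −0.63 to 0.63 (46 pairs). These ranges overlap and do not settle whether the numbers pair the samples.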

Additional observations from a re-analysis of the deposited data

Results flagged for a closer look

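In 68 sets of 4 libraries (34 members in WT-ND and in WT-WD), the gap between an extreme library and its nearest neighbour was set against the whole range of the group, and 2 sets passed Dixon's critical value of 0.829. Both concern the WT-WD F1 library: Atf6 was at its lowest there (6.63 scaled RPKM, the other WT-WD libraries at 8.11 to 8.37), and Herpud1 at its highest (87.9, the others at 50.1 to 51.3). Chance passes about 1 in 20 such groups.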

How the results depend on the processing

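Of the results on calls, 117 of 118 were the same under the alternatives, with 0 members called. The exception was RPKM as deposited, with no scaling, where 1 member (Syvn1) was called for diet in Tas1r3+/+ and the member medians became −0.58 for diet in Tas1r3+/+, −0.34 for diet in Tas1r3-/-, −0.20 for genotype on ND and −0.01 for genotype on WD, where the sign turned. All genes shifted there too, with medians of −0.38, −0.35, −0.14 and −0.12, and for diet in Tas1r3+/+ 0 members were higher and 21 lower at an unadjusted p under 0.05. The share of all genes at that p was not worked out there. Leaving out 1 library moved the member median between 0.054 and 0.28 for genotype on WD and between 0.12 and 0.39 for the interaction, both highest without KO-WD M1. It was −0.23 to −0.07 for diet in Tas1r3+/+, 0.03 to 0.16 for diet in Tas1r3-/- and −0.10 to 0.02 for genotype on ND, where the sign was thus not stable. With protein-coding transcripts only, a choice made after seeing the data, Derl3 for diet in Tas1r3+/+ became −0.16, since its noncoding transcripts are then left out.

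The members under an unadjusted p of 0.05 depended on single libraries: for diet in Tas1r3+/+ they numbered 6, and 3 without WT-ND M1, WT-ND F2, WT-WD M1 or WT-WD F1. For genotype on WD they numbered 4, 1 without WT-WD F1 and 0 without KO-WD M2. For genotype on ND they numbered 2, and 0 without WT-ND F2 or KO-ND M2. With all 16 labelled columns they numbered 8 in the interaction, against 0, and those columns are not all independent. The share of all genes at that p was not worked out for these alternatives, so the counts do not set the members apart from other genes. Dnajb9 for diet in Tas1r3-/- and Syvn1 for diet in Tas1r3+/+ kept their direction and an unadjusted p under 0.05 in every alternative run.

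With the replicate block, 0 members were called in any comparison, and the log2 differences for genotype on ND were −0.45 for Dnajb9 and 0.59 for Derl3, neither at an unadjusted p under 0.05. Derl3-203 for diet in Tas1r3+/+ had a limma adjusted p of 0.00654 with the replicate block and of 0.000753 to 0.00664 without 1 library, and it was not called among males alone. Depth limits the low genes, Chac1 and Trib3 above all.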

Other observations

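A transcript of the disulfide isomerase P4hb is given as a description only, as it was chosen after its values were seen. P4hb-202 is a processed transcript of 414 bases whose exons lie inside the last exon (exon 11 of 11) of the coding P4hb-201. Its scaled RPKM was 0.0436 to 32.2 in WT-ND, 63.6 to 114 in KO-ND, 0.366 to 34.7 in WT-WD and 81.5 to 109 in KO-WD, so that all 5 Tas1r3-/- libraries lay above all 8 Tas1r3+/+ libraries. The log2 difference was 3.75 ± 1.59 (SE, limma adjusted p = 0.911) on ND and 2.91 ± 1.40 (SE, limma adjusted p = 1.00) on WD, so neither passed the test over all transcripts. How many other transcripts separate the genotypes in this way was not worked out. The separation thus does not set P4hb-202 apart from them. Because the sequence of P4hb-202 is shared with P4hb-201, the division of reads between them is an estimate.

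Eif2ak3-202, a transcript of the PERK gene with a retained intron, had a log2 difference of −1.93 (limma adjusted p = 0.0426) for diet in Tas1r3+/+, which is above the threshold of 0.01. It was likewise named after its values were seen.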
